A study of Homo sapiens with 2 samples.

Results

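The KEAP1-CUL3-NRF2 antioxidant axis was followed here through 7 genes in a ChIP-seq study of ZMYND8, a chromatin reader with a bromodomain and PHD, PWWP and MYND domains. The data were 2 lists of peak summits from spheres of MDA-MB-231, an established triple-negative breast cancer line. One library came from ZMYND8 knockout spheres and the other from parental spheres, labelled wildtype. Both were grown in MammoCult medium and precipitated with the same ZMYND8 antibody. The labels do not say how the knockout was made or whether it is 1 clone. The genes KEAP1, CUL3, NFE2L2, NQO1, HMOX1, GCLM and SLC7A11 were selected on earlier results of these same lists, in which KEAP1 and CUL3 stood out. A summit belonged to a gene when it lay in the gene's hg19 span or within 5 kb of either end. This rule took 33 of 46309 summits, 2 of 385 in the knockout list and 31 of 45924 in the parental list. The positions and scores below therefore describe the members and test nothing. There was 1 library per genotype, so no difference has a replicate check.

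NRF2, the product of NFE2L2, is a transcription factor that is made all the time and normally destroyed soon after. KEAP1 holds it and presents it to a ubiquitin ligase built on the scaffold CUL3. Oxidants and electrophiles modify cysteines of KEAP1, NRF2 then accumulates, pairs with small MAF proteins and binds antioxidant response elements. Its known targets include NQO1, HMOX1, GCLM and SLC7A11, and in tumours the pathway is known for protecting cells from oxidative stress and from some drugs.

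The bases before the starts of 4 members are printed here because these genes hold the 3 highest parental promoter scores of the set (KEAP1, GCLM and NQO1) and a knockout summit (KEAP1 and CUL3). Each run is the 250 bases upstream of a RefSeq start on GRCh38.p14, written 5′ to 3′ on the gene's strand, which is the minus strand in all 4. The lists are on hg19, so summits and sequences are set beside each other by gene and not by coordinate. Measured from the hg19 starts, no summit of these 4 genes lay in the 250 bases upstream. The highest promoter summits of KEAP1, GCLM and CUL3 were downstream of the start, and that of NQO1 was 785 bp upstream. The printed bases are therefore not the sequence at the summits. Capitals mark matches to the core of the antioxidant response element, searched as TGACNNNGC on both strands. KEAP1 has a pair of starts in the table, and the window shown is that of the downstream start, chosen because it holds matches; the window of the outermost KEAP1 start held 0. The windows are chr19:10502772-10503021 for KEAP1, chr1:93909431-93909680 for GCLM, chr16:69726561-69726810 for NQO1 and chr2:224585364-224585613 for CUL3.
KEAP1: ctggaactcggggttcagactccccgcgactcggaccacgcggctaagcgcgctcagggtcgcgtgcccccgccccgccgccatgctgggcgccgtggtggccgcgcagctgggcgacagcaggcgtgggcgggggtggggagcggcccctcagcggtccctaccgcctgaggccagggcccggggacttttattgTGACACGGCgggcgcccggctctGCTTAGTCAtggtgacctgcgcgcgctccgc
GCLM: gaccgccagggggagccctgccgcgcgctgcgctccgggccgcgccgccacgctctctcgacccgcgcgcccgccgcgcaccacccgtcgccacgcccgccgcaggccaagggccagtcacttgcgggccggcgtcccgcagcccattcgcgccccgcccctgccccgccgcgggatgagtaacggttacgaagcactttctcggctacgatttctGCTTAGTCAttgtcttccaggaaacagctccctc
NQO1: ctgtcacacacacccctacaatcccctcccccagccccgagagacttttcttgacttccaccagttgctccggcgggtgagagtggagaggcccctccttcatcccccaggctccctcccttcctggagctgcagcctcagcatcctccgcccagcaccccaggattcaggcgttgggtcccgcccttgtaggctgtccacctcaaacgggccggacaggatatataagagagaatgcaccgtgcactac
CUL3: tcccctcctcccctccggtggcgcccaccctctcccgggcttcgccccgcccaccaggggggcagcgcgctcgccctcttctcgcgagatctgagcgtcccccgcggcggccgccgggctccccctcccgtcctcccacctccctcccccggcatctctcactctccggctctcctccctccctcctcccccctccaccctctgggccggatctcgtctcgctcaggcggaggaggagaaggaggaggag

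The KEAP1 window held the core at 54 to 46 bases before the start, as TGACACGGC on the gene's strand, and again at 31 to 23 bases, as TGACTAAGC on the opposite strand. The GCLM window held TGACTAAGC on the opposite strand too, at 34 to 26 bases before the start. These letters occurred in 30 of 35116 RefSeq windows (0.0854%), a count made after the shared run had been seen. The core itself was in 2 of the 8 member windows, which came from 5 genes, against 10.9% of all windows. Bases farther upstream were not searched, so a window without a match does not mean a gene without the element. HMOX1 and SLC7A11 had no window in the table. TGANTCA, the AP-1 consensus with a free middle base, was in 0 of the 8 member windows and in 6.57% of all windows. The motifs share the letters TGA and were searched separately, on both strands. A match is a description of the letters and not a measured binding site.

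Most member windows were rich in G and C. Their median GC content was 73.4%, against 58% over all windows, and the median ratio of observed to expected CpG was 0.845 in member windows and 0.558 over all windows. The NQO1 window was lower, with 61.6% GC and a CpG ratio of 0.407. The window of the downstream CUL3 start had 31.2% GC and the lowest CpG ratio of the 8, 0.164.

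In the knockout list 2 of the 7 genes, KEAP1 and CUL3, had a summit, and in the parental list all 7 did. Among 325 other protein-coding genes for which hg19 models were at hand, 0.308% had a knockout summit and 64.3% a parental summit in a span widened the same way. Both knockout summits lay within 1 kb of the outermost start of their gene, taken as the promoter here, which was the case for 0% of the 325 sampled genes. KEAP1 and CUL3 stood out in the results used to select the genes, so these knockout shares are no test. Parental summits lay within 1 kb of the start of 6 members, SLC7A11 being the exception, against 48.0% of the sampled genes. The summits counted 2 (exact Poisson 95% interval 0.242 to 7.22) in the knockout list and 31 (21.1 to 44) in the parental list. These intervals cover counting error only. A missing summit means that no peak passed the authors' calling threshold, which is not known to be equally strict for both libraries, and it does not show that ZMYND8 signal was absent. A listed summit has a limit too, since the knockout library used the same antibody in cells labelled knockout for its target. Whether knockout summits, or parental summits near them, are ZMYND8 binding or antibody background was not tested.

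**Figure D1:**
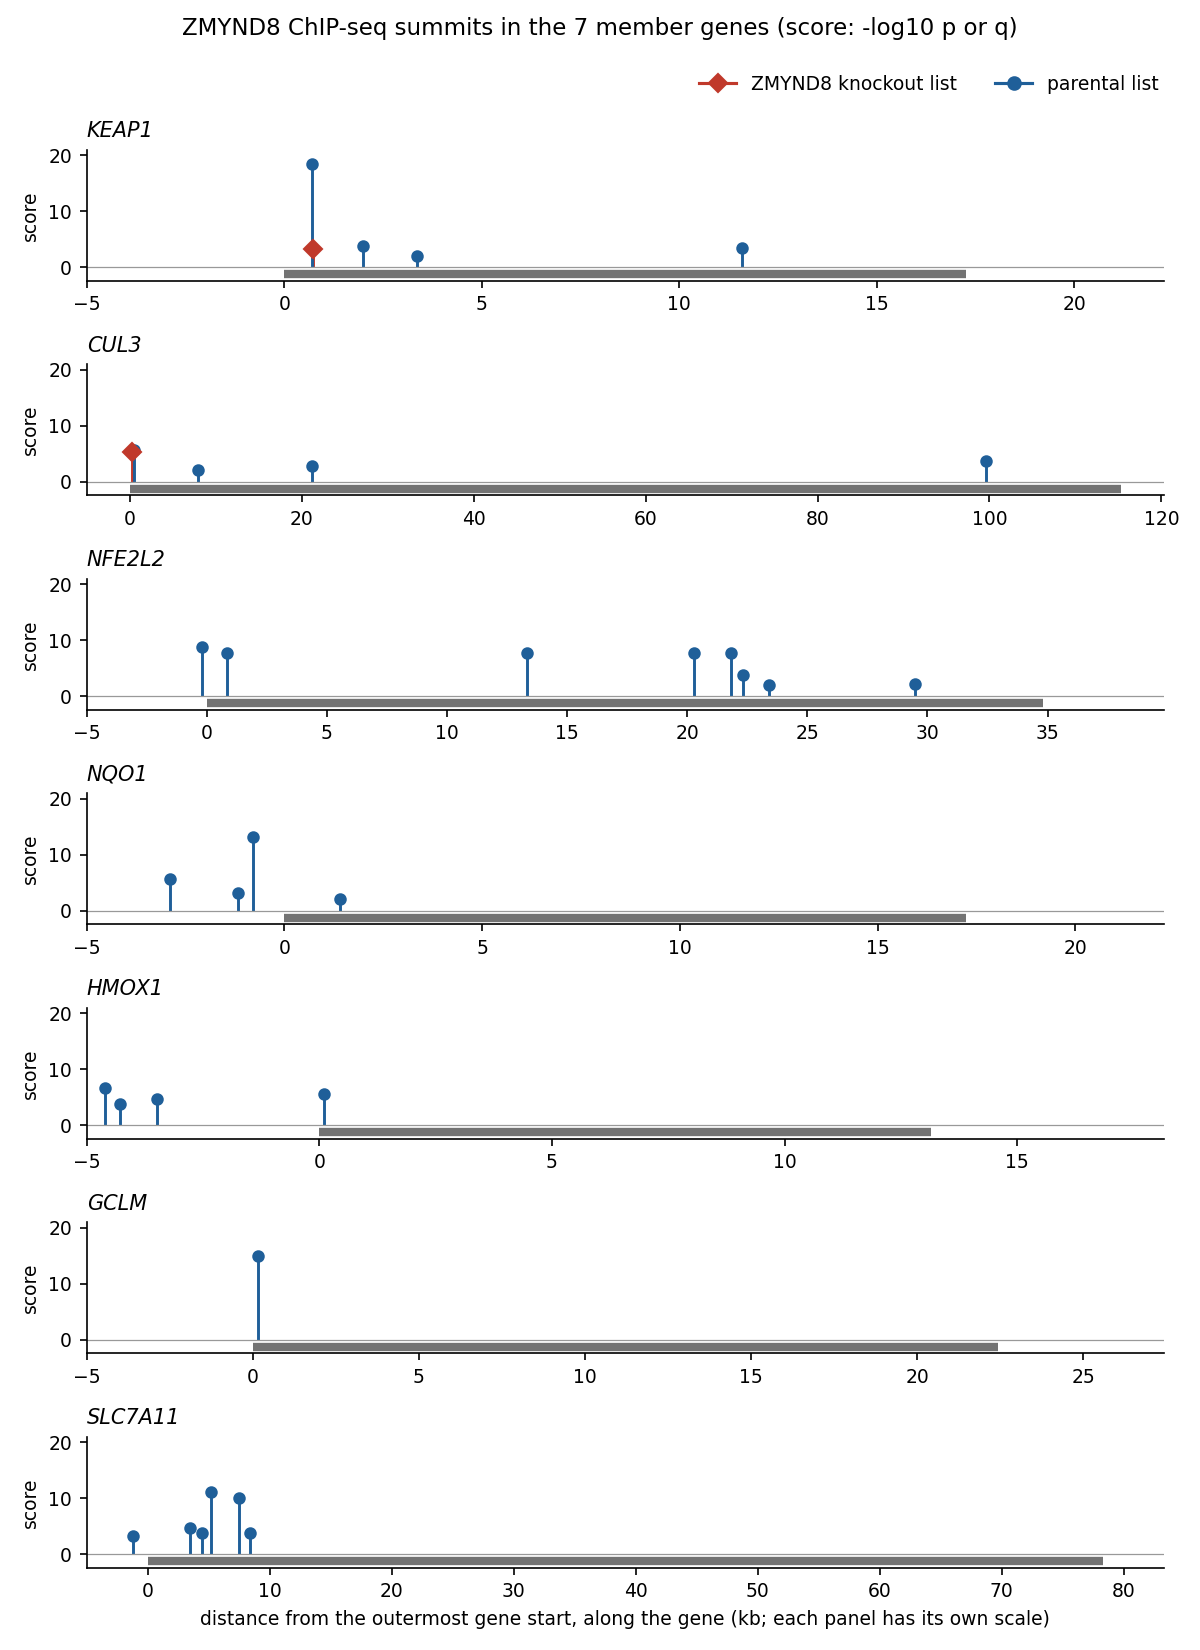
Summits in the 7 genes by distance from the outermost start (kb, along the gene, with 5 kb to either side), with the authors' −log10 p or q score as height. Red diamonds are knockout summits, blue circles parental summits and grey bars the gene spans. The 2 knockout summits stand at the starts of KEAP1 and CUL3, and no summit of either list lies in the 5 kb beyond the 3′ end of any of the 7 genes.

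KEAP1, the adaptor that recognises NRF2, had the highest score of the set. The knockout list held 1 summit at 10613322 of chromosome 19, with a score of 3.27. The parental list held 4, at 10613352 (score 18.4), 10612070 (3.75), 10610702 (2.05) and 10602457 (3.42). The score is the authors' −log10 of a p or q value, which grows with the evidence for a peak over background within a library, and scores of the separate lists are not compared as a change. The knockout summit lay 30 bp from the highest parental one. In the hg19 model of the gene, whose start is 607 bp downstream of the outermost one, these summits lay 125 bp (knockout) and 95 bp (parental) downstream of the start, both in intron 1. Within their own lists they stood far apart, since 303 of 385 knockout summits scored higher than the first and 389 of 45924 parental summits scored higher than the second. Of the other parental summits 1 was in intron 1, 1 in exon 2 and 1 in exon 3, all with scores under the parental median of 3.79.

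CUL3, the ligase scaffold, was the other gene with a knockout summit. It lay at 225449872 of chromosome 2 in exon 1, 242 bp downstream of the start, with a score of 5.37. The nearest parental summit lay at 225449640, 232 bp away and 474 bp downstream of the start, with a score of 5.68. It was in intron 1, 21 bp past the end of exon 1, as was the highest parental KEAP1 summit, also 21 bp past its exon. With sharing set at 200 bp, the KEAP1 pair was shared and the CUL3 pair was not, which makes 1 of 2 against 75.6% of all knockout summits. The other parental summits of CUL3 lay 7.93, 21.26 and 99.54 kb into the gene, in introns 1 and 12, with scores of 2.14, 2.93 and 3.79. The next knockout summits outside the widened spans were 234 and 333 kb from the ends of KEAP1, and 4780 and 7120 kb from the ends of CUL3.

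NFE2L2, which encodes NRF2 itself, had no knockout summit and the most parental summits of the set, 8 (exact Poisson 95% interval 3.45 to 15.8). A pair flanked the outermost start. The summit at 178130073 of chromosome 2 lay 214 bp upstream with a score of 8.87, and that at 178128999 lay 860 bp downstream with a score of 7.77. The other 6 lay 13.35 to 29.5 kb into the gene. Of these, the summits at 178116509, 178109562 and 178108050 had the same score of 7.77, and the remaining 3 had 3.79, 2.14 and 2.05. Equal scores are frequent in this list, where 1114 parental summits had the same 7.77, so no order among the 4 NFE2L2 summits with it can be read. Per 100 kb of widened span NFE2L2 held 17.8 parental summits, against 1.18 over chromosome 2 and 2.59 in the sampled gene spans. This density was not particular to NFE2L2, since HMOX1 held 17.3 and KEAP1 and NQO1 14.7 each. Their chromosomes held 1.54 (HMOX1), 1.69 (NQO1) and 5.06 (KEAP1), so KEAP1 stood closer to its chromosome than the others. SLC7A11 held 6.8, CUL3 3.19 and GCLM 3.08.

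Of the target genes, GCLM and NQO1 had the higher promoter scores. GCLM, the modifier subunit of the ligase that makes the glutathione precursor, had no knockout summit and 1 parental summit, at 94374846 of chromosome 1. It lay 166 bp downstream of the start with a score of 14.9, and 730 parental summits scored higher. The rest of the 22.4 kb gene held no summit, which sets GCLM apart in count from the 4 to 8 parental summits of the other members.

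NQO1, a quinone reductase widely used as a readout of NRF2 activity, had no knockout summit and 4 parental summits. The highest lay at 69761318 of chromosome 16, 785 bp upstream of the start, with a score of 13.2. Further upstream were summits at 69761696 (score 3.27) and 69763432 (5.68), and 1 lay 1.41 kb inside the gene (2.14). The highest promoter summits of NQO1 and NFE2L2 lay upstream of the outermost start, whereas those of KEAP1, CUL3, HMOX1 and GCLM lay downstream of it.

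HMOX1, the inducible haem oxygenase, and SLC7A11, the cystine-glutamate antiporter subunit that supplies cystine for glutathione, each had their highest score away from the start. Neither had a knockout summit. HMOX1 had a parental summit 99 bp downstream of the start, at 35777159 of chromosome 22, with a score of 5.68. Another 3 lay 3.48 to 4.60 kb upstream, at 35773579 (score 4.71), 35772769 (3.79) and 35772461 (6.70), and spanned 1118 bp. The last is the member summit closest to the 5 kb limit, and the nearest parental summit beyond the limit lay 6.17 kb past the 3′ end of HMOX1, with a score of 2.93.

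SLC7A11 had no summit of either list within 1 kb of its start. Its nearest was a parental summit 1.22 kb upstream, at 139164719 of chromosome 4, with a score of 3.27. The other 5 parental summits lay 3.50 to 8.40 kb inside the 78.3 kb gene and spanned 4.90 kb. The highest, at 139158316 (score 11.2) and 139155993 (10.02), stood between summits at 139160007 (4.71), 139159071 (3.79) and 139155105 (3.79). Beyond these the gene held none.

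**Figure D2:**
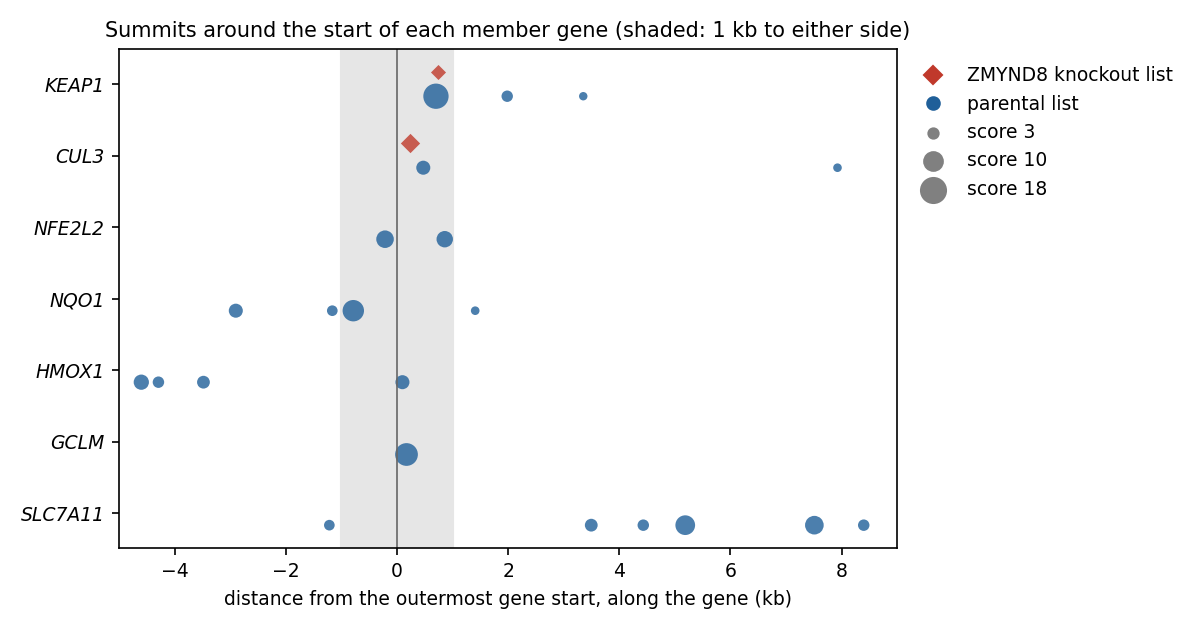
Summits from 5 kb upstream to 9 kb downstream of the outermost start of each gene, with the area of a symbol proportional to its score. Red diamonds are knockout summits and blue circles parental summits. All genes but HMOX1 and SLC7A11 have their highest parental summit inside the shaded 1 kb to either side, and SLC7A11 has its highest scores of 11.2 and 10.02 between 5.19 and 7.51 kb inside the gene.

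The summits of some members were crowded. At NQO1 all 4 parental summits, at HMOX1 all 4, at SLC7A11 5 of 6 and at NFE2L2 4 of 8 had 3 or more other parental summits within 5 kb. At KEAP1, CUL3 and GCLM none did. Over the members this was 17 of 31, against 30.3% of all parental summits. Neighbouring summits can be parts of 1 broad peak, and joining those within 1000 bp left 24 parental summits in the 7 genes. Per 100 kb of widened span the members held 0.543 knockout and 8.41 parental summits, against 0.00392 and 2.59 for the sampled genes. Over the whole lists the densities were 0.0127 and 1.51. The knockout values rest on 2 summits in the members and on 1 of the 325 sampled genes, so their contrast is fragile. The 2 are those of KEAP1 and CUL3, which stood out in the results used to select the genes. The contrast is therefore no support for an enrichment. The median span was 31.9 kb for the sampled genes and 22.4 kb for the members.

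By position, the 31 parental summits fell into 6 in the upstream flanks, 7 in promoters, 18 in gene bodies beyond 1 kb and 0 in the downstream flanks. The body share was 58.1% (exact binomial 95% interval 39.1 to 75.5), with NFE2L2 and SLC7A11 giving 11 of the 18. Gene bodies beyond 1 kb make up a still larger share of the 368 kb searched, so this share shows no preference for bodies. The interval treats summits of 1 library as independent, although many are crowded, and is probably too narrow. Both knockout summits were in promoters. By score, 0 of the 2 knockout summits and 5 of the 31 parental summits reached 10, against 12.5% of the whole knockout list and 6.27% of the whole parental list. These 5 were those of KEAP1, GCLM and NQO1 and the pair inside SLC7A11. The median score of the parental members was 4.71, against 3.79 for the whole parental list, and 14 of the 31 were in its highest scoring 25% (score of at least 5.68).

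Set beside the sampled genes by their highest promoter score, the members ranged from the top to the bottom. KEAP1 exceeded all 325, among which the highest was 18.2. GCLM exceeded 322 of them, NQO1 317 and NFE2L2 305. CUL3 and HMOX1, with the same score of 5.68, each exceeded 262 and tied with 12. SLC7A11, with no promoter summit, exceeded none. Of the 325, 156 scored above it and the others had no promoter summit either. A promoter score of at least 10 was found for 3 of the 7 members and for 4% of the sampled genes. These ranks depend on the promoter width, because the KEAP1 and NQO1 summits lie 702 and 785 bp from the outermost start. With promoters of 500 bp, KEAP1 and NQO1 had no promoter summit, and GCLM was the 1 member left with a score of at least 10, against 3.08% of the sampled genes. The members were chosen with the KEAP1 value known, and that KEAP1 summit lies 30 bp from a knockout summit.

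**Figure D3:**
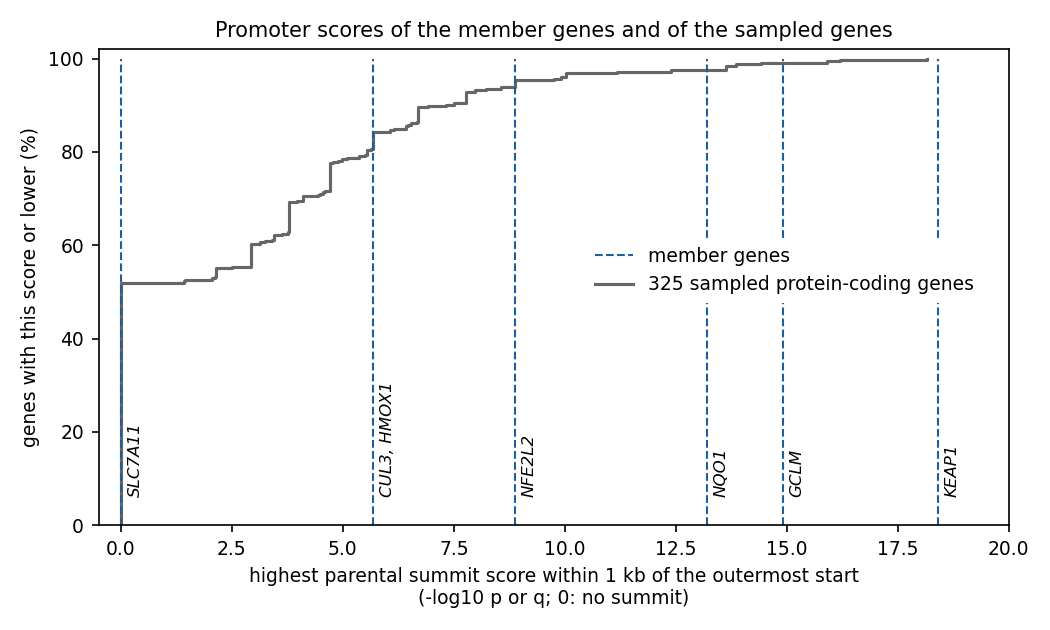
Share of the 325 sampled genes (y, cumulative %) with a given highest parental promoter score or lower (x, −log10 p or q, 0 for no summit), as a grey line. Dashed blue lines mark the members, from SLC7A11 with no promoter summit to KEAP1 with 18.4, to the right of every sampled gene.

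Other genes of the pathway could be described by sequence alone. Of 51 listed partners and targets of NRF2, 0 had an hg19 model at hand, so their summits were not analysed here. RefSeq windows were found for 39 of the 51, and TGACNNNGC was present at 13 of these 39 genes, or in 22.6% of their 62 windows. Over all RefSeq windows it was present at 3609 of 27305 genes, or in 10.9% of windows. The run shared by KEAP1 and GCLM was found at none of the 39. With the run in 0.0854% of all windows, its absence from 62 windows says little.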

How the data were processed

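The data are ZMYND8 ChIP-seq of MDA-MB-231 spheres, with 1 knockout and 1 parental library, grouped by their labelled genotype. Per the submitters' processing notes, the build was hg19 and the tools were MACS2 2.0.10, Bowtie2 2.2.3, FastQC 0.11.2 and Picard 1.127, with no role or setting for any. No source used here gives read depth, control library or calling threshold, and all 3 can change which summits were listed. The deposited files list, for each library by itself, a position and a −log10 p or q value per summit, without saying whether p or q.

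From these, summits were assigned by 1-based hg19 position to the member spans. The members and lists were chosen with earlier results of these data known. Every member was described, with its highest summit, the summit nearest the start, and every knockout summit. Sampled genes came from example transcripts in pyranges 0.1.4 (500 transcripts, no build stated, within hg19 chromosome lengths) and GenomicFeatures 1.54.1 (178 transcripts, hg19), matched by identifier to RefSeq genes. Those spread over separate loci were left out, and so were KEAP1 and CUL3 (the models used for exons and introns). Neither set is known to be random. Motifs and GC content were read from RefSeq promoter windows. Counting was tested on simulated summits. Intervals were exact Poisson and Clopper-Pearson. With 1 library a group, libraries could not be tested against each other. The alternatives were other flanks, promoter windows, score minimums, sharing distances and merging. The work used matplotlib 3.10.9, scipy 1.17.1, numpy 2.4.6 and pandas 2.3.3 in Python 3.11.15.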

Additional observations from a re-analysis of the deposited data

How the results depend on the processing

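No paired analysis was possible because each genotype has 1 library. A count was taken to hold within 1.5 times and a share inside its 95% interval; 28 of 41 alternatives held and 13 did not. Some could hardly move, so these numbers are no measure of robustness. With scores of at least 5, the CUL3 summit was the 1 knockout summit left (1 gene with a summit, 1 with a promoter summit) and 14 parental summits were left; with the highest scoring 25% of each list, 0 knockout summits (0 genes, 0 promoters) and 14 parental ones. A promoter of 500 bp left 1 gene with a knockout promoter summit, since the KEAP1 summit lies 732 bp from the outermost start, and 4 of 7 in place of 6 with a parental one, since KEAP1 and NQO1 drop out. It placed the median member above 82.8% of sampled genes in place of 93.8%. With sharing at 500 or 1000 bp, 2 knockout summits had a parental partner. Without flanks the body share was 78.3%, as upstream summits drop out. Measuring from the start of the hg19 models, chosen after seeing the data, changed neither promoter count. Since the read depth is unknown, list lengths and scores of the libraries cannot be put on 1 scale.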
